A study of Mus musculus with 9 samples.

Results

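Genes that make, package, recapture, break down or sense dopamine were followed across every plate of a single-cell RNA sequencing series of the developing mouse ventral midbrain. The choice of genes, by symbol and for textbook roles, was made with earlier results of these data known. The 9 genes (Th, Ddc, Gch1, Qdpr, Slc18a2, Slc6a3, Aldh1a1, Maob and Drd2) were each present once among the 32695 table entries that were not spike-in RNAs. They were read in 2035 cells of 3455 sorted wells, namely wells in which no fewer than 2000 genes were seen, no more than 50000 counts were made and under 15% of counts were mitochondrial. All plates came from VGAT-Cre:Ai14:Pitx3-GFP mice. VGAT-Cre acts in cells that express the vesicular GABA transporter gene Slc32a1, the Ai14 allele then gives these cells and their descendants the red protein tdTomato (tdT), and Pitx3-GFP makes cells of the midbrain dopamine (mDA) system green. The plates fell into 4 groups. The VGAT group held tdT+ cells, with 4 plates at E16 and 3 at P0, and the VGAT+Pitx3 group held tdT+/GFP+ cells, with 1 plate at E16 and 1 at P0. Because tdT is permanent once switched on, the sort records that a cell had expressed VGAT-Cre and not that it still expressed Slc32a1. How many brains filled each plate is not given in the sources used here, so the p-values measure the spread between plates, which may be technical.

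Dopamine is made from tyrosine in 2 steps. Tyrosine hydroxylase (Th) carries out the first and slowest step with tetrahydrobiopterin as cofactor, and aromatic amino acid decarboxylase (Ddc) carries out the second. GTP cyclohydrolase (Gch1) starts the synthesis of the cofactor and dihydropteridine reductase (Qdpr) regenerates it after use. The vesicular monoamine transporter (Slc18a2) loads dopamine into vesicles and the dopamine transporter (Slc6a3) takes it up again after release. Monoamine oxidase B (Maob) oxidises dopamine to an aldehyde, which aldehyde dehydrogenases such as Aldh1a1 remove. Aldh1a1 also makes retinoic acid. The receptor Drd2 lets dopamine neurons sense their own release. The set of Th, Ddc, Slc6a3 and Slc18a2, called the core genes below, is the one textbooks use to define a dopamine neuron, while Ddc and Slc18a2 also serve serotonin and noradrenaline neurons.

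Plates differed in depth, and their labels were not free of doubt. The kept cells of a plate numbered 44 to 305 and held 1435919 to 5408710 counts in total, with a median of 7039 to 33235.5 counts per cell. Each plate also carried a second plate name inside the cell names, which for several plates gave another stage than the sample label. That name also holds a letter, s or d, whose meaning is not given in the sources used here: d stands on VGAT E16 replicate 4 and VGAT P0 replicate 3, and s on all other plates, both VGAT+Pitx3 plates included. Groups were taken from the sample label. Plates share 1 set of well barcodes, and 0 pairs of kept cells had identical counts. The sort could be checked and the stage could not: the gene for Pitx3 had 652 and 174 counts on the VGAT+Pitx3 plates and between 0 and 2 on each VGAT plate. Gad1, which makes GABA, had a count in 90.7 to 95.2% of the cells of a VGAT plate but in 1.0% (E16) and 1.2% (P0) of VGAT+Pitx3 cells, where Gad2, its partner enzyme, was found in 60.5% and 66.3%. These shares, and all shares of cells below that are not said to be without thinning, were taken after every cell had been thinned at random to 4000 counts, which left 1956 cells.

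All members are protein-coding genes, placed here on the mouse genome build GRCm38. Th lies on the minus strand at chr7:142892752-142931128, Ddc on the minus strand at chr11:11814101-11898144, Slc6a3 on the plus strand at chr13:73536747-73578672 and Slc18a2 on the plus strand at chr19:59260896-59296012. Aldh1a1 shares chromosome 19 with Slc18a2, at chr19:20492715-20643465 on the plus strand. Gch1 is at chr14:47153895-47189413 (minus), Qdpr at chr5:45434021-45450236 (minus), Drd2 at chr9:49340627-49408177 (plus) and Maob at chrX:16709282-16817366 (minus). Antisense transcripts overlap an exon of Ddc, Slc18a2, Aldh1a1 and Qdpr. Where these were counted at all they held few counts over all plates, 10 for 1700042O10Rik at Ddc, 3 for C730002L08Rik at Aldh1a1 and 18 for Gm42413 at Qdpr. Whether the counting used the strand is not given in the sources used here.

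Promoters of the 4 core genes are printed because these genes define a dopamine neuron and were all higher in the VGAT+Pitx3 plates, as described below. The sequences are from RefSeq (GRCm38.p6) and run from 250 bases before to 50 bases after a transcript start, in the direction of the gene. Matches to 4 short motifs were searched on both strands and are in capitals: the cyclic AMP response element TGACGTCA, the site AAAGGTCA known to be bound by receptors of the Nr4a family, the core TAATCC known for Pitx and Otx factors, and the TATA box TATAAA. Ddc has 2 RefSeq starts and the upstream one is shown, which holds the matches, while the other window (chr11:11890359-11890658) holds none of the 4 motifs.
Th, chr7:142899946-142900245, minus strand: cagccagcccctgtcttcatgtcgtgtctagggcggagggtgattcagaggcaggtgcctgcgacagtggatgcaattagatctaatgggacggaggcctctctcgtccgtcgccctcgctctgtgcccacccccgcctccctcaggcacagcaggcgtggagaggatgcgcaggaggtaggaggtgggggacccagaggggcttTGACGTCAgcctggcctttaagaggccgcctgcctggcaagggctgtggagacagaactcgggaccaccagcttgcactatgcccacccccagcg
Slc18a2, chr19:59260628-59260927, plus strand: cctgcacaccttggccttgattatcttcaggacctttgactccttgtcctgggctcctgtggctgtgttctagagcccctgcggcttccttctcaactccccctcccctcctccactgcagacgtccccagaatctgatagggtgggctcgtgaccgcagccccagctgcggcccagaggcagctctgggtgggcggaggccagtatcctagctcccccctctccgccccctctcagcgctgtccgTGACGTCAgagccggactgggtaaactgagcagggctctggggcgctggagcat
Ddc, chr11:11898095-11898394, minus strand: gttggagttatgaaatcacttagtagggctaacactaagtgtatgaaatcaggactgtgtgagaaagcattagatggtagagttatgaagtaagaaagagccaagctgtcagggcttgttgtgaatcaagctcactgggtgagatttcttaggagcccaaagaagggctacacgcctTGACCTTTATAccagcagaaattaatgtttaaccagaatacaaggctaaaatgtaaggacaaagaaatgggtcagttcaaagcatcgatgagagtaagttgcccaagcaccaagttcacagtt
Slc6a3, chr13:73536497-73536796, plus strand: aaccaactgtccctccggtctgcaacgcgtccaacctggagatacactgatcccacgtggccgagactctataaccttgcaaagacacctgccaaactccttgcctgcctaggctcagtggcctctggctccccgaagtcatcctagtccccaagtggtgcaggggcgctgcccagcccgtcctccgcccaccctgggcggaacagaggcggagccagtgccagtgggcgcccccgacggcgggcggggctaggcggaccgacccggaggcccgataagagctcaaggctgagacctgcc
The Th promoter held the cyclic AMP element with its first base 45 bases before the start, and the Slc18a2 promoter held it with its first base 4 bases before the start. Of all 32851 mouse promoters of this length, 1.79% held this element. The upstream Ddc promoter held the Nr4a site in the reverse direction (TGACCTTT), and its last 3 bases are also the first bases of a reversed TATA box. The Nr4a site was present in 1.51% and the TATA box in 13.6% of promoters. No stretch of these letters was found in the Slc6a3 window. TAATCC, which 7.06% of promoters held, was in none of the 10 windows of the 8 members that had one, and Maob had no window. A match to letters is a description of the sequence and says nothing of whether a factor bound there.

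The first comparison asked how much the tdT+/GFP+ cells differed from the tdT+ cells in the dopamine genes, with stage as a covariate and the counts of each plate's cells summed. Of the 9 members, 7 were called higher in VGAT+Pitx3 plates, where 4.73% of the 14624 genes tested were called higher, and none was called lower. Because the members were chosen with earlier results of these data known, this count describes the set and is no independent test of it. The median log2 fold change was 4.52 over the members and -0.001 over all genes tested. Synthesis, vesicle loading, reuptake, the aldehyde dehydrogenase and the receptor were all among the 7. Qdpr and Maob were not called. The size of the difference covered a wide range, from 2.08 for Drd2 to 11.0 for Aldh1a1 on the log2 scale.

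**Figure D1:**
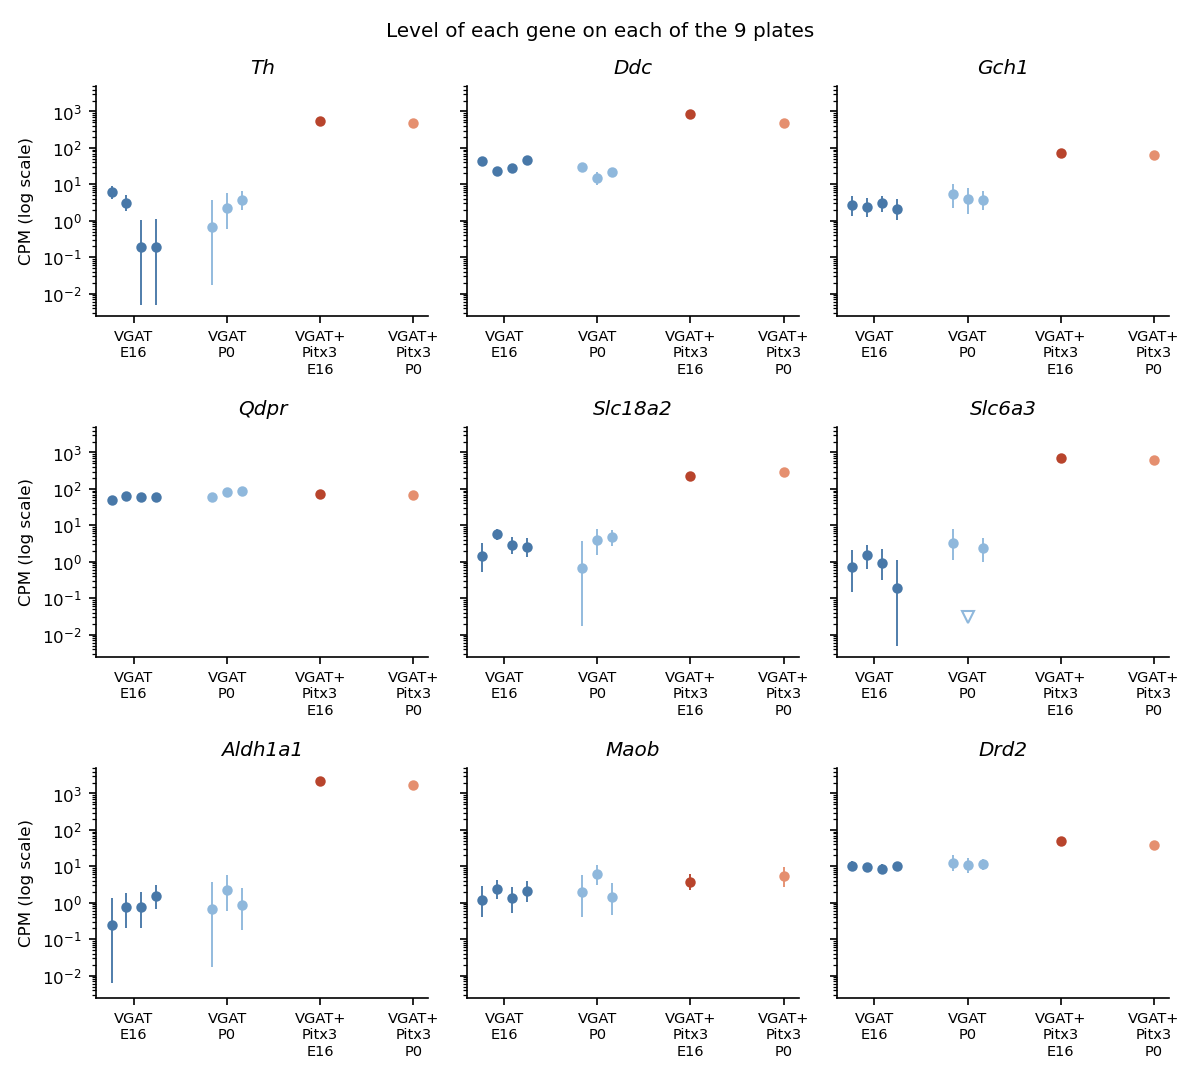
Level of each member on each plate in CPM (log scale), by sort and stage. Points are single plates, lines are exact Poisson 95% intervals of the count, and the open triangle marks 0 counts of Slc6a3 on 1 VGAT P0 plate. For Th, Ddc, Gch1, Slc18a2, Slc6a3, Aldh1a1 and Drd2 both VGAT+Pitx3 plates sit above every VGAT plate, while for Qdpr and Maob the sorts overlap.

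Th, the gene of the first enzyme, was scarce on VGAT plates. Levels are given as CPM, the summed count of a plate scaled to a common total. Its level was 6.13, 3.17, 0.189 and 0.197 CPM on the VGAT E16 plates and 0.669, 2.21 and 3.78 CPM on the VGAT P0 plates. The VGAT+Pitx3 plates held 563 CPM at E16 and 471 CPM at P0. Every VGAT plate was far below both VGAT+Pitx3 plates, and the E16 plates held both the highest and the lowest VGAT values. The log2 fold change was 7.78 (SE 0.38, adjusted p = 3.91e-09, edgeR quasi-likelihood test).

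Ddc, which decarboxylates the product of Th, stood out among the core genes because VGAT plates were not near 0 for it. VGAT E16 plates held 44.4, 22.9, 28.0 and 45.2 CPM and VGAT P0 plates 29.4, 14.9 and 21.8 CPM. The VGAT+Pitx3 plates held 830 CPM at E16 and 475 CPM at P0. The plates of both sorts did not overlap, and the log2 fold change of 4.52 (SE 0.2, adjusted p = 1.77e-09 in edgeR) was the smallest of the 4 core genes.

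The cofactor genes went apart. Gch1, which makes the cofactor, lay between 2.17 and 5.35 CPM over the 7 VGAT plates (3.33 ± 1.1, SD) and at 72.0 and 64.2 CPM on the VGAT+Pitx3 plates, a log2 fold change of 4.45 (SE 0.2, adjusted p = 1.52e-09 in edgeR). Qdpr, which recycles the cofactor, lay between 49.5 and 86.9 CPM on VGAT plates (65.6 ± 13.8, SD, n = 7) and at 73.8 and 69.6 CPM on VGAT+Pitx3 plates. For Qdpr both VGAT+Pitx3 plates were within the range of the VGAT plates, and the log2 fold change was 0.14 (SE 0.16, adjusted p = 0.771 in edgeR).

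Both transporters were called higher. Slc18a2, the vesicular transporter, held 1.47, 5.77, 2.84 and 2.57 CPM on VGAT E16 plates and 0.669, 3.86 and 4.65 CPM on VGAT P0 plates, against 229 and 297 CPM on the VGAT+Pitx3 plates of E16 and P0 (log2 fold change 6.22, SE 0.24, adjusted p = 3.82e-10 in edgeR). It was the only core gene with its higher VGAT+Pitx3 level at P0. Slc6a3, the plasma membrane transporter, held 0.736, 1.49, 0.947 and 0.197 CPM on VGAT E16 plates and 3.35, 0 and 2.33 CPM on VGAT P0 plates, and 702 and 632 CPM on the VGAT+Pitx3 plates. Its log2 fold change was 9.13 (SE 0.27, adjusted p = 3.33e-11 in edgeR), so of the core genes it separated the sorts by the widest margin. On VGAT P0 replicate 2 no count of Slc6a3 was seen, where 3 counts would have been 1.67 CPM.

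The breakdown genes went apart as well. Aldh1a1 held 0.245, 0.745, 0.757 and 1.58 CPM on VGAT E16 plates and 0.669, 2.21 and 0.872 CPM on VGAT P0 plates, 25 counts in all, and 2180 and 1730 CPM on the VGAT+Pitx3 plates (log2 fold change 11.0, SE 0.21, adjusted p = 2.69e-13 in edgeR). Maob was low everywhere. It lay between 1.23 and 6.07 CPM on VGAT plates and at 3.83 and 5.35 CPM on VGAT+Pitx3 plates, from 17 and 12 counts, and the log2 fold change was 0.96 (SE 0.5, adjusted p = 0.353 in edgeR). The value of 6.07 CPM was that of VGAT P0 replicate 2, and the other 6 VGAT plates reached at most 2.42 CPM, below both VGAT+Pitx3 plates. Without that plate the log2 fold change was 1.29 (adjusted p = 0.0981 in edgeR). At this depth a difference of Maob between the sorts could not be told from the spread between plates.

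Drd2, the receptor, was a called member with a steady level on VGAT plates. It lay between 8.71 and 12.7 CPM there (10.6 ± 1.31, SD, n = 7), a narrow range, and at 49.1 CPM (E16) and 37.5 CPM (P0) on VGAT+Pitx3 plates. The log2 fold change was 2.08 (SE 0.17, adjusted p = 1.09e-06 in edgeR).

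Reads from exons and introns gave a further view of the low values on VGAT plates. Of the 25 Aldh1a1 counts on VGAT plates, 11 came from exons (44.0%), whereas 97.3% of the Aldh1a1 counts on VGAT+Pitx3 plates did. The exon share was also lower on VGAT plates for Slc6a3 (80.0% of 30 counts against 95.3%), Maob (76.4% against 93.1%) and Drd2 (76.2% against 86.1%). For Drd2 this held at E16 and turned at P0, where the VGAT+Pitx3 plate was at 75.0% and the 3 VGAT plates at 80.0 to 84.6%, and for Maob single VGAT plates ran from 40.0 to 100%. For Th it was 96.8% against 98.2%, for Ddc 82.2% against 85.9%, for Slc18a2 94.4% against 95.5%, for Gch1 96.2% against 95.9% and for Qdpr 99.5% against 99.6%. Over all genes 70.0 to 79.9% of a plate's counts were exonic. With so few counts of Aldh1a1 and Slc6a3 on VGAT plates, these shares are a description of single reads.

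**Figure D2:**
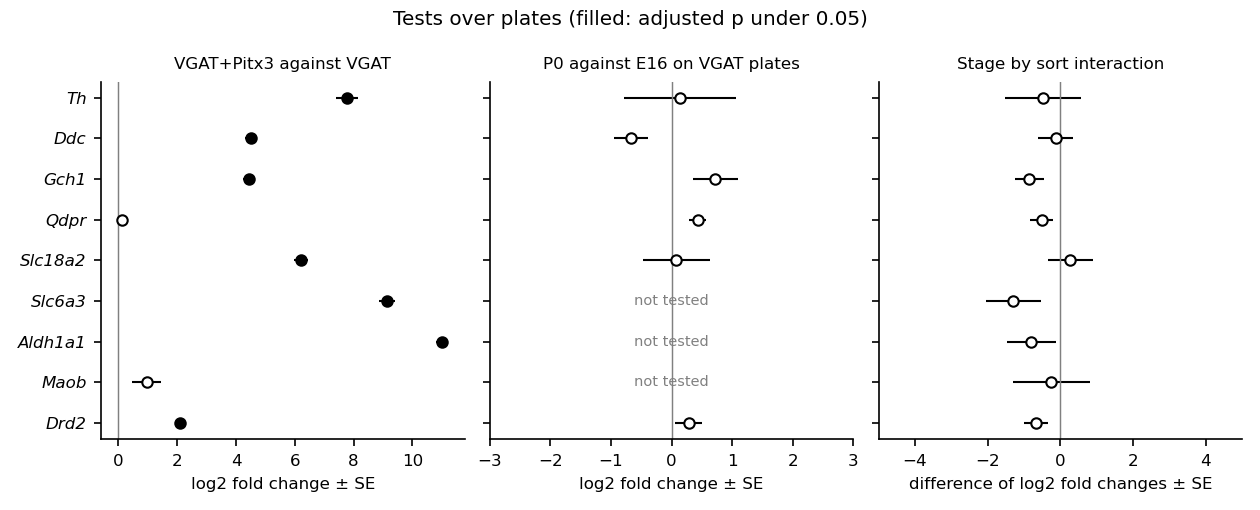
Log2 fold change and standard error of each member in 3 comparisons over plates: VGAT+Pitx3 against VGAT, P0 against E16 on VGAT plates, and the stage by sort interaction. Filled points have an adjusted p under 0.05 in edgeR. All 7 filled points are in the first panel, and 3 members were too low to be tested for stage on VGAT plates.

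Other genes of the same pathway did not follow the members. Of a list of 28 further genes for the cofactor, related hydroxylases, breakdown, transport and other dopamine receptors, 18 could be tested between the sorts and 1 was called, against 8.93% of all genes tested that were called in either direction. Gchfr, whose protein inhibits the Gch1 enzyme, was lower on VGAT+Pitx3 plates, with 1 count there and 85 on VGAT plates (log2 fold change -4.16, SE 1.14, adjusted p = 0.0331 in edgeR), a call that was lost without VGAT P0 replicate 3 (adjusted p = 0.0648) or without the VGAT+Pitx3 plate of E16 (0.321) or P0 (0.109). The median log2 fold change over the 18 was -0.4. Genes that mark serotonin neurons were at or near 0: Tph2, Slc6a4 and Fev summed to 0.49 to 3.48 CPM on VGAT plates and to 0.9 and 1.34 CPM on VGAT+Pitx3 plates. Astrocyte genes (Aqp4, Gfap, Aldh1l1 and Slc1a3), of interest because glia express Maob, summed to 110 CPM on VGAT P0 replicate 2, to 0.49 to 4.1 CPM on the other 6 VGAT plates and to 25.2 and 56.2 CPM on VGAT+Pitx3 plates. The plate that was highest for these genes was also highest for Maob, and their part in the Maob values was not tested.

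The second comparison asked whether the members differed between E16 and P0 within the VGAT sort. None of the 6 members that passed the filter on low counts was called, where 4.58% of the 13639 genes tested were. An unadjusted p under 0.05 in edgeR was reached by 2 of the 6, Ddc and Qdpr, and by 3284 of the 13639 genes. Ddc was at 35.1 ± 11.4 CPM (SD, n = 4) on E16 and 22.0 ± 7.27 CPM (SD, n = 3) on P0 plates, a log2 fold change of -0.67 (SE 0.28, adjusted p = 0.162 in edgeR). Qdpr was at 57.7 ± 5.58 CPM on E16 and 76.2 ± 15.1 CPM on P0 plates, a log2 fold change of 0.43 (SE 0.14, adjusted p = 0.101 in edgeR). For both genes the stages overlapped. Ddc passed the threshold without a filter on low counts (adjusted p = 0.00488 in edgeR) and Qdpr without VGAT P0 replicate 1 (adjusted p = 0.0389). The remaining 4 had log2 fold changes of 0.14 (Th), 0.08 (Slc18a2), 0.72 (Gch1) and 0.28 (Drd2). Aldh1a1, Slc6a3 and Maob were too low to test. In the pathway list, 2 of 18 were called, Pcbd1, which recycles the cofactor with Qdpr (log2 fold change 0.97, adjusted p = 0.0178 in edgeR), and Slc22a3, a low-affinity monoamine transporter (2.6, adjusted p = 0.0197). Both calls were lost when any one of VGAT E16 replicates 3 and 4 or VGAT P0 replicates 2 and 3 was left out, with adjusted p of 0.0523 to 0.0641 for Pcbd1 and 0.0598 to 0.0749 for Slc22a3. With the stage that the second plate name gives, 1 gene was called in place of 624, and the log2 fold changes were 0.1 for Pcbd1 (adjusted p = 0.984), -0.29 for Slc22a3 (0.981) and 0.04 for Ddc (0.994 in edgeR). That stage also turned the sign for Th (-2.71), Slc18a2 (-0.22), Gch1 (-0.2) and Drd2 (-0.14).

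The third comparison asked whether the stage difference itself was different in VGAT+Pitx3 plates. No member was called among 9 tested, nor was any gene among 15724 in edgeR (0%), where 998 had an unadjusted p under 0.05 and DESeq2 called 14 genes, none of them a member. With 1 VGAT+Pitx3 plate a stage, this test assumes that those plates vary like the VGAT plates. Counting error was small for members with many counts on the VGAT+Pitx3 plates. It was larger for Drd2 at P0, with 84 counts, and for Maob, with 17 at E16 and 12 at P0. The exact 95% Poisson intervals of E16 and P0 did not overlap for Th (541 to 585 and 443 to 500 CPM), Ddc (803 to 857 and 447 to 505), Slc6a3 (677 to 727 and 600 to 666), Slc18a2 (215 to 243 and 275 to 321) and Aldh1a1 (2140 to 2220 and 1670 to 1780). They overlapped for Gch1, Qdpr, Drd2 and Maob. These intervals cover counting error only and cannot tell a stage from a plate. They also leave out the spread between cells, so they are too narrow where few cells hold most counts. For Aldh1a1 the variance between thinned cells was 40.6 times the mean at E16 and 38.8 times at P0. The only interaction of a member with an unadjusted p under 0.05 was that of Gch1 (-0.86, SE 0.4, adjusted p = 0.778 in edgeR). Slc6a3, Aldh1a1 and Maob, too low for the stage test on VGAT plates, entered this fit with few VGAT counts, so no size is read from their interactions.

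In single cells no member was found in every VGAT+Pitx3 cell. At 4000 counts per cell, Ddc was found in 74.6% of 299 cells at E16 (exact binomial 95% interval 69.3 to 79.4%) and in 57.8% of 249 cells at P0 (51.4 to 64.0%). Th was found in 50.5% and 51.4%, Slc6a3 in 47.5% and 43.8%, Slc18a2 in 44.1% and 54.2% and Aldh1a1 in 47.5% and 59.0%. Gch1 was found in 15.4% and 18.1%, Qdpr in 21.7% and 16.9%, Drd2 in 9.36% and 11.6% and Maob in 1.0% and 1.61%. The intervals of the stages overlapped for all members but Ddc. Without thinning the shares at E16 and P0 were 85.9% and 70.8% for Ddc, 66.8% and 61.6% for Th, 61.5% and 50.6% for Slc6a3, 75.3% and 67.2% for Slc18a2 and 75.0% and 77.5% for Aldh1a1. The higher share of Slc18a2 at P0 was thus seen at equal depth and not in the unthinned cells, which were deeper at E16 (median 13855 counts) than at P0 (7462).

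VGAT plates, thinned to the same depth, give the share in cells of the other sort. Th was found in 0 to 2.37% of the cells of a VGAT plate, Slc6a3 in 0 to 1.18%, Slc18a2 in 0 to 1.55%, Aldh1a1 in 0 to 1.18%, Gch1 in 0.515 to 2.33% and Maob in 0 to 1.55%. Ddc reached 3.09 to 11.6% and Drd2 2.06 to 5.92%. Qdpr, at 14.8 to 30.2%, covered both VGAT+Pitx3 plates. Apart from Qdpr and Maob, each member was in a larger share of cells on both VGAT+Pitx3 plates than on any VGAT plate.

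**Figure D3:**
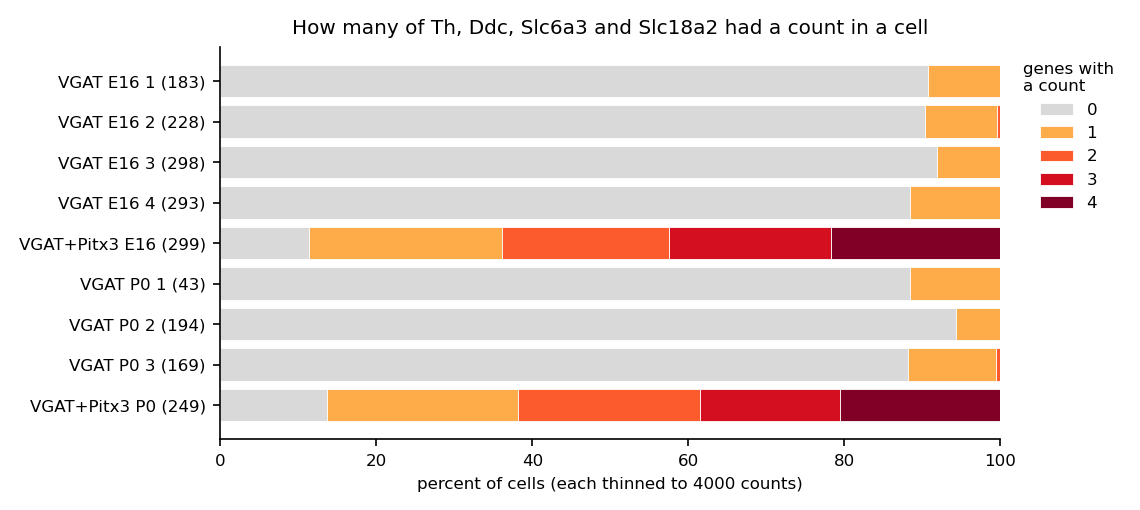
Percent of cells of each plate, thinned to 4000 counts, in which 0, 1, 2, 3 or 4 of Th, Ddc, Slc6a3 and Slc18a2 had a count. The number of cells is in brackets. All 4 genes were found in 21.7% of VGAT+Pitx3 cells at E16 and 20.5% at P0, and no VGAT cell held more than 2.

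The core genes were found together in part of the VGAT+Pitx3 cells. At E16, 65 of 299 cells (21.7%) held all 4, 62 held 3, 64 held 2, 74 held 1 and 34 (11.4%) held none. At P0, 51 of 249 cells (20.5%) held all 4, 45 held 3, 58 held 2, 61 held 1 and 34 (13.7%) held none. Cells with the full set and cells with no core gene were present at both stages, but their shares depended on depth. Without thinning, 42.1% of 304 cells at E16 and 31.0% of 271 at P0 held all 4. Only 10 cells (3.29%) and 14 cells (5.17%) then held none. On VGAT plates 2 of 1408 thinned cells held 2 core genes and none held more. Even without thinning, 1 of 1460 VGAT cells held 3 core genes and none held 4.

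Pitx3 and transmitter genes differed between cells with many and with no core genes. Nr4a2, Lmx1b and En1, factors of dopamine neurons or of the midbrain, were found in most cells of both kinds. Each of these was in a smaller share of the cells with no core gene, with wider gaps at P0 than at E16. Of the 127 E16 cells with 3 or 4 core genes, 94.5% held Nr4a2, 77.2% Lmx1b, 52.0% Pitx3, 21.3% Gad2, 29.1% Slc32a1 and 8.66% the glutamate transporter gene Slc17a6. In the 34 E16 cells with none, 88.2% held Nr4a2, 76.5% Lmx1b, 17.6% Pitx3, 94.1% Gad2, 64.7% Slc32a1 and 50.0% Slc17a6. At P0 the 96 cells with 3 or 4 core genes held Nr4a2 in 92.7%, Lmx1b in 71.9%, Pitx3 in 34.4%, Gad2 in 28.1%, Slc32a1 in 29.2% and Slc17a6 in 22.9%. The 34 P0 cells with none held Nr4a2 in 79.4%, Lmx1b in 55.9%, Pitx3 in 11.8%, Gad2 in 97.1%, Slc32a1 in 70.6% and Slc17a6 in 52.9%. En1 was in 86.6% of cells with 3 or 4 core genes and 73.5% of those with none at E16, and in 86.5% and 64.7% at P0. Foxa2, a factor of the floor plate and of dopamine neurons, went the other way at E16, with 26.0% against 58.8%, and was in 35.4% against 26.5% at P0. Cells with no core gene on these plates were therefore rich in Gad2, Slc32a1 and Slc17a6 at both stages. Slc32a1, the gene whose Cre gave the tdT label, had no count in most cells with 3 or 4 core genes at this depth.

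Which members shared cells was described by the share of cells with one gene among cells with and without another. Cells are not replicates, so no test is given. Th and Slc6a3 went together most closely of the core genes: Slc6a3 was found in 73.5% of E16 cells with Th and 20.9% without, and in 68.0% and 18.2% at P0. Ddc was found in 91.5% of E16 cells with Slc6a3 and 59.2% without, and in 78.9% and 41.4% at P0. Drd2 was found almost always with Slc6a3, since 27 of 28 Drd2 cells at E16 and 29 of 29 at P0 held Slc6a3. Slc18a2 was found in 52.1% of E16 cells with Slc6a3 and 36.9% without, and in 64.2% and 46.4% at P0. At equal depth its gap was thus smaller than that of Ddc. Without thinning this order turned at E16, with a gap of 19.6 points for Slc18a2 and 17.3 for Ddc, and held at P0 with 19.2 and 23.5.

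**Figure D4:**
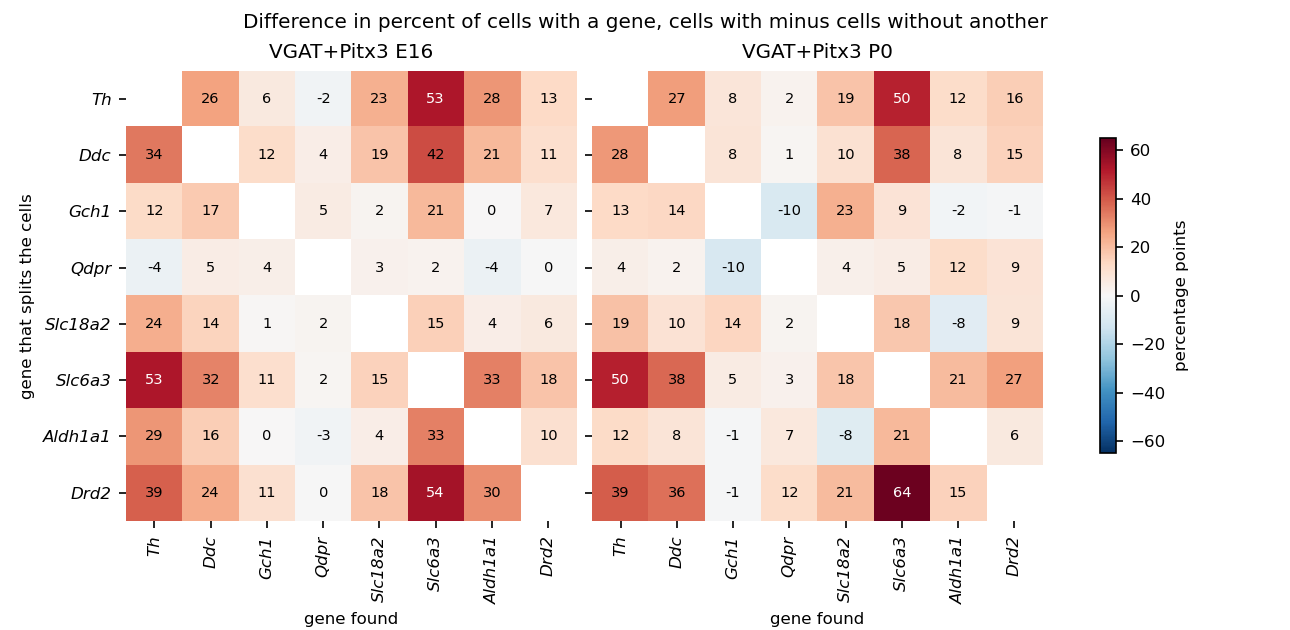
Difference, in percentage points, between the share of cells with the gene in the column among cells with and without the gene in the row, on each VGAT+Pitx3 plate (cells thinned to 4000 counts, Maob left out for its few cells). The largest difference at each stage is that of Slc6a3 between cells with and without Drd2 (54.0 points at E16 and 63.6 at P0), and the pairs with Qdpr lie near 0 at E16.

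Correlations across cells were computed as well. The points are cells of 1 library each, with equal totals. Pearson's r of log2(count + 1) was 0.64 at E16 and 0.62 at P0 for Th with Slc6a3, 0.53 and 0.47 for Th with Ddc, 0.57 and 0.48 for Ddc with Slc6a3, 0.58 and 0.44 for Th with Aldh1a1 and 0.36 and 0.45 for Slc6a3 with Drd2. Slc18a2 reached at most 0.29 with any member and Gch1 at most 0.21, while r was between -0.08 and 0.11 for every pair with Qdpr or Maob. The enzyme that makes the cofactor was thus called higher in the sort by plate sums and was only weakly tied, cell by cell, to the enzyme that uses it (r 0.15 and 0.16 for Gch1 with Th), at 1 count or less in most cells.

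Among 3549 genes found in at least 20% of cells on both VGAT+Pitx3 plates, the genes most like each member across cells were ranked by the lower r of the plates, and of the first 3 those with at least 0.3 are named. For Th they were Slc6a3, Zfhx3 (r 0.59 and 0.49 at E16 and P0) and Ddc. For Slc6a3 they were Th, Galntl6 (0.66 and 0.59) and Nwd2 (0.64 and 0.54). Ddc had Slc6a3, Th and Sdc2 (0.34 and 0.42), and Drd2 had Slc6a3 and Tmem255a (0.31 and 0.34). The first 3 for Aldh1a1 held no member and were Cd47 (0.5 and 0.56), Hs6st3 (0.5 and 0.55) and Rgs6 (0.49 and 0.48). No gene reached 0.3 for Slc18a2, Gch1, Qdpr or Maob.

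Cells with a Gad2 count and cells without one differed in most members. At E16, Th was found in 28.2% of 181 cells with Gad2 and in 84.7% of 118 without, and at P0 in 35.2% of 165 with and 83.3% of 84 without. Slc6a3 differed more, with 19.3% against 90.7% at E16 and 21.2% against 88.1% at P0. Drd2 was found in 2.21% against 20.3% and in 2.42% against 29.8%. Slc18a2 differed less, with 35.9% against 56.8% at E16 and 48.5% against 65.5% at P0. Gch1 was found in 11.6% against 21.2% at E16 and in 17.6% against 19.0% at P0, and Qdpr in 20.4% against 23.7% and 16.4% against 17.9%. Ddc was found in 60.2% against 96.6% and in 44.2% against 84.5%. Maob was found in 1.1% against 0.847% and in 1.21% against 2.38%. Of the core genes, Slc18a2 thus had the smallest gap at both stages.

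**Figure D5:**
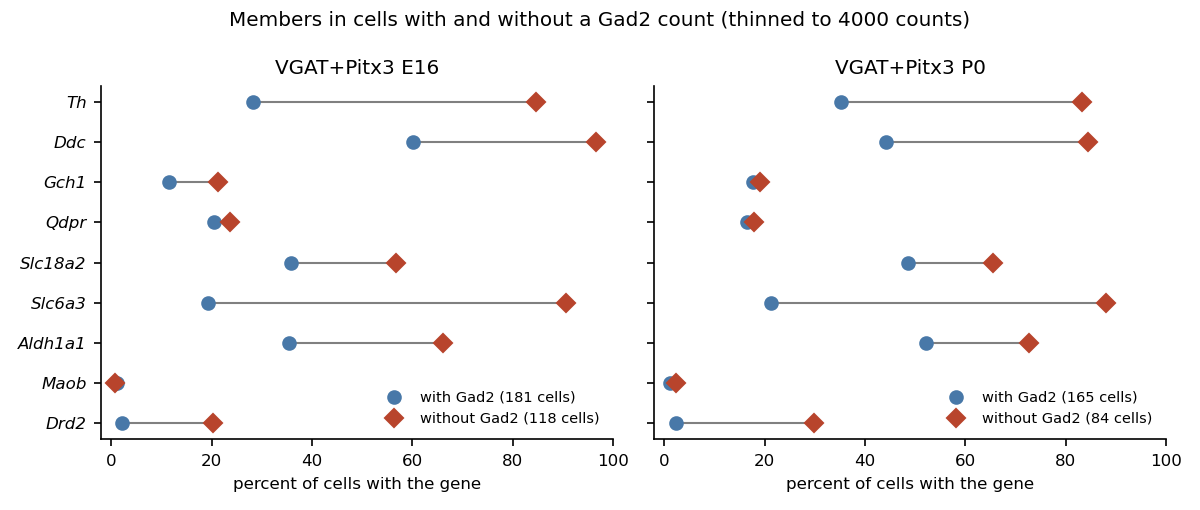
Percent of cells with each member among VGAT+Pitx3 cells with and without a Gad2 count, by stage (cells thinned to 4000 counts). The gap is widest for Slc6a3 (19.3 against 90.7% at E16) and Th, smaller for Slc18a2, and nearly closed for Qdpr and Maob.

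Sox6, a factor of nigral dopamine neurons, also went with some members and not others. Of E16 cells, 83.1% of 89 with Sox6 and 36.7% of 210 without held Th, and 86.5% and 31.0% held Slc6a3, while Slc18a2 was found in 46.1% and 43.3%. At P0, 72.7% of 33 cells with Sox6 and 48.1% of 216 without held Th, 81.8% and 38.0% held Slc6a3, and 60.6% and 53.2% held Slc18a2. Otx2, a factor of the tegmental area, was found in 23 and 16 cells, of which 0 and 1 held Drd2, against 10.1% and 12.0% of the other cells. Ddc was in 87.0% of Otx2 cells against 73.6% at E16 and in 75.0% against 56.7% at P0, and Th in 34.8% against 51.8% and 43.8% against 51.9%. Calb1 was listed with Sox6 and Otx2 as a mark within dopamine cells of the nigra and tegmental area. Th was in 65.7% of 35 Calb1 cells against 48.5% of the others at E16, and in 64.5% of 76 against 45.7% at P0. Slc6a3 was in 68.6% against 44.7% and 68.4% against 32.9%, and Drd2 in 8.57% against 9.47% and 22.4% against 6.94%. Th and Slc6a3 were thus found more often with Sox6 and also with Calb1. Slc18a2 was closer to equal across the Sox6 split than Th and Slc6a3 at both stages.

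Aldh1a1 was spread over cells in another way than the other members. Its variance between thinned cells was 40.6 times its mean at E16 and 38.8 times at P0, against 4.2 and 3.47 for Th and 5.1 and 6.05 for Slc6a3. At E16, 56 cells (18.7%) with 10 or more counts held 93.1% of all Aldh1a1 counts, and 77 cells (25.8%) with 1 to 4 counts held 4.47%. At P0, 41 cells (16.5%) with 10 or more held 89.0%, and 100 cells (40.2%) with 1 to 4 held 8.57%. Only 9 and 6 cells lay between. A few cells thus carried the level of the plate, and a large number carried a trace.

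The cells with 10 or more Aldh1a1 counts were rich in dopamine genes. At E16, 98.2% of them held Th, 96.4% Slc6a3, 100% Ddc, 58.9% Slc18a2, 69.6% Sox6, 14.3% Gad2 and 7.14% Slc32a1. At P0, 87.8% held Th, 97.6% Slc6a3, 90.2% Ddc, 63.4% Slc18a2, 31.7% Sox6, 14.6% Gad2 and 2.44% Slc32a1. Cells with 1 to 4 counts were close to cells with none for some genes and not for others. Gad2 was in 70.1% against 74.5% at E16 and 78.0% against 77.5% at P0, Slc6a3 in 37.7% against 31.8% and 33.0% against 31.4%, and Th in 41.6% against 36.9% and 42.0% against 44.1%. At P0, Slc18a2 was in 44.0% against 58.8% and Qdpr in 22.0% against 12.7%. Wells of the same plates that fell under the limit of 2000 genes also held Aldh1a1, at 66.7% (E16) and 76.7% (P0) of the CPM in kept wells. The part that RNA from other wells had in the cells with a trace of Aldh1a1 was not tested. The share of cells with Aldh1a1 (47.5% and 59.0%) therefore counts cells of very unequal level.

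Th on VGAT plates was concentrated in few cells. Without thinning, 32 of 1460 VGAT cells held Th, 22 of them with 1 count, and 19 of the 62 counts came from 1 cell of VGAT E16 replicate 1. Of these 32 cells, 32 held Gad1, 30 Slc32a1 and 28 Gad2, while none held Pitx3, Nr4a2 or Aldh1a1, 7 held Ddc, 2 Slc18a2 and 1 Slc6a3. Th was therefore seen in these cells largely without the rest of the set. All 3 VGAT cells with 3 or more Th counts held a Dlx gene, a family of factors of forebrain GABA neurons.

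The last comparison asked whether VGAT cells with a count of Dlx1, Dlx2, Dlx5, Dlx6 or Dlx6os1 differed in the members from the other cells of the same plates, with plate as a block. Without thinning, there were 274 such cells and 1186 others. VGAT E16 replicate 2 held 126 of the Dlx cells, and each other plate 5 to 45. Also without thinning, Th was found in 16 of 274 (5.84%) and 16 of 1186 (1.35%), and its level was higher in Dlx cells on 5 of 7 plates. A deeper cell is more likely to show a Dlx count and also a Th count. The part of depth in these shares was not tested. Of the 16 Dlx cells with Th, 9 were on VGAT E16 replicate 2, and of the 16 other cells with Th, 8 were on VGAT P0 replicate 3, which had 5 Dlx cells. On VGAT E16 replicates 3 and 4 no Dlx cell held Th. Th was called higher in Dlx cells (log2 fold change 3.25, SE 0.62, adjusted p = 0.00772 in edgeR), the 1 call among 5 members tested, where 0.331% of 12393 genes were called higher. Without VGAT E16 replicate 1, the plate with the cell of 19 counts, the log2 fold change was 2.72 and the adjusted p was 0.236. Without VGAT E16 replicate 2 they were 3.65 and 0.00953, and without VGAT P0 replicate 3 they were 3.15 and 0.039 (edgeR). Drd2 had a log2 fold change of 0.77 (SE 0.29, adjusted p = 0.467 in edgeR), and Ddc, Slc18a2 and Qdpr had 0.16, 0.71 and 0.15. Gch1, Slc6a3, Aldh1a1 and Maob were too low to test.

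Ddc on VGAT plates was spread more widely. It was found in 233 of 1460 VGAT cells without thinning, in 214 of them with no other core gene. Dlx cells held it in 17.5% and other cells in 15.6%, again without thinning. At 4000 counts, 106 VGAT cells held Ddc, 59 with 1 count, 34 with 2 or 3 and 13 with 4 or more, up to 8. Slc6a3 was in 5 of 1408 VGAT cells and Aldh1a1 in 8 at that depth. Without thinning, 25 of 1460 held Slc6a3 and 22 held Aldh1a1, and 1 cell held both.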

How the data were processed

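Per the labels and the study's methods, single cells of the ventral midbrain were sorted into 384-well plates and sequenced by SORT-seq, which tags the 3′ end of each transcript. The authors mapped reads with STAR to the mouse genome (mm10) and deposited, per plate, expected counts: molecule counts corrected for barcode collisions, over exons and introns together (total), exons (spliced) and introns (unspliced). Of the non-zero total values 51.7% were not whole, and all were rounded here. The molecular barcode length is given differently in the labels and the methods. The limits of the study on the exonic, ribosomal and spike-in shares of a cell were not applied, and no doublet caller was run. Intervals and floors cover counting error only.

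Plate sums over the kept cells entered edgeR 4.0.16 (filterByExpr, TMM factors, quasi-likelihood F test, two-sided) in R 4.3.3, with Benjamini-Hochberg adjustment over all genes tested and a threshold of 0.05. CPM used TMM-scaled totals. Fits were tested on simulated data. Shares, co-detection and correlations used cells thinned once to 4000 counts, with a fixed seed, and 79 shallower cells were left out (24 of VGAT E16, 28 of VGAT P0, 5 of VGAT+Pitx3 E16 and 22 of VGAT+Pitx3 P0). Positions are from GENCODE and promoters from RefSeq. Named were all 9 members, genes of a pathway list that were called or had a role in breakdown, and the genes most like a member under the rule given; some genes of these lists are not reported here. The members and lists were chosen with earlier results of these data known. Alternatives were DESeq2 1.42.0, scaling by RLE, all genes with a count in place of the filter, spliced counts alone, cells with a Pitx3 count or with over 2 times the plate's median count left out, each plate left out, a replicate block, the stage of the second plate name, other thinning depths and a limit of 2 counts.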

Additional observations from a re-analysis of the deposited data

Results flagged for a closer look

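Wells left out for having under 2000 genes were not used in any comparison, yet on the VGAT+Pitx3 plates they held 5 members with over 3 counts on each VGAT+Pitx3 plate and at a level above that in the same kind of well on every VGAT plate. Over 190 such wells, Th reached 443 CPM (here counts over the plain total of the wells), Ddc 503, Slc6a3 488, Slc18a2 322 and Aldh1a1 1310. The 1188 such wells of the VGAT plates together reached 4.73 for Th, 22.5 for Ddc, 3.54 for Slc6a3, 4.73 for Slc18a2 and 5.91 for Aldh1a1. Gch1 and Drd2 were also above every VGAT plate over the pooled wells (50.3 and 30.2 CPM, against at most 14.6 and 16.4), with only 3 counts on a VGAT+Pitx3 plate. Whether these counts came from cells in those wells or from other wells of the plate was not tested. None of the 18 sets of 4 VGAT E16 values, the level and the share of cells of each member, had a plate that stood apart by Dixon's test.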

How the results depend on the processing

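All 7 members called higher on VGAT+Pitx3 plates were called in each of 15 alternatives, with the largest adjusted p at 0.00183 (Drd2), and only Qdpr changed sign, at -0.16 to 0.35 when 1 plate was left out. That comparison called 625 to 1397 genes without 1 plate, 625 of them without the VGAT+Pitx3 plate of E16 and 866 without that of P0.

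The stage comparison on VGAT plates was less stable. It called 624 genes, 76 to 833 without 1 plate, 944 by DESeq2, 1588 without a filter on low counts, 226 with the replicate number as a block and 1 with the stage of the second plate name. That name gave Th -2.71, Ddc 0.04, Drd2 -0.14, Gch1 -0.2, Slc18a2 -0.22 and Slc22a3 -0.29, and Pcbd1 fell to 0.1. Th was -0.04 by DESeq2 and -0.61 to 0.43 without 1 plate. Slc18a2 was -0.08 with the replicate block and -0.42 to 0.55 without 1 plate. Equal replicate numbers did not pair plates (r 0.03 for each of 3 pairs). The block called no member, and Slc22a3 lost its call (adjusted p = 0.08 in edgeR).

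The interaction gave 0 genes in edgeR, also without any 1 VGAT plate, 14 by DESeq2 and 66 without the filter, and could not be fitted without either VGAT+Pitx3 plate. Without 1 plate its values were -1.36 to 0.3 (Th), -0.32 to 0.07 (Ddc), -0.2 to 0.8 (Slc18a2) and -0.71 to 0.6 (Maob), and Maob was 0.2 without cells of over 2 times the median count. Dlx cells differed in 97 genes, in 266 without the filter, in 9 without the plate block (where Th did not pass the filter) and in 87 to 106 without 1 plate, where Ddc was -0.05 to 0.42.

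The median share of VGAT+Pitx3 cells over the members was 44.0% at 4000 counts, 31.4% at 2000, 56.0% at 8000, 56.0% without thinning, 27.2% with a limit of 2 counts and 48.9% for spliced counts. The median co-detection difference over pairs was 9.58 points, and 16.1 without thinning, where Slc18a2 with Aldh1a1 moved from -1.68 to 7.58 points and Slc18a2 no longer had a smaller gap than Ddc by Slc6a3 at E16. The causes of these changes were not tested. Maob had only 29 counts on VGAT+Pitx3 plates, which limits what can be read from its values.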
